A study of Arabidopsis thaliana with 21 samples.

Results

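The 37 Arabidopsis thaliana genes described here carry out the synthesis of the plant hormone salicylic acid and of the linked signal N-hydroxypipecolate, their regulation, and the response to them. They were chosen as a list of locus identifiers by their role in the pathway, with no threshold on measured values but with earlier results of these data known, out of the 32833 genes in the deposited expression table, and all 37 were found in it. RNA was sequenced from whole 7-day-old seedlings grown in liquid culture, with 3 libraries for each of 7 groups. The labels give the same strength of the growth medium for all groups. The groups were the H89C lines H89C4-7, H89C11-7 and H89C23-10, the NEET lines NEET10-10, NEET5-4 and NEET11-9, and the wild type Col. AtNEET is a small protein with an iron-sulfur cluster, and the title of the series calls its H89C form, in which a histidine is replaced by cysteine, dominant-negative. No promoter, insertion site or copy number is named for any line in the labels. Nothing states that the libraries of a line were separate cultures. The p-values below therefore measure the spread between libraries, which may be technical. Those of the comparison of H89C lines with NEET lines measure instead the spread between line means.

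In Arabidopsis, salicylic acid is made mainly from isochorismate. ICS1 forms isochorismate in the plastid, EDS5 exports it, PBS3 joins it to glutamate, and EPS1 speeds the breakdown of that conjugate into salicylic acid. N-hydroxypipecolate, the mobile signal of systemic acquired resistance, is made from lysine by ALD1, SARD4 and FMO1, and UGT76B1 attaches glucose to it. The transcription factors CBP60G and SARD1 switch on both pathways. EDS1 and its partners act upstream, NPR1, NPR3 and NPR4 bind the hormone, TGA factors carry NPR proteins to promoters, and DLO1 and DMR6 remove salicylic acid by hydroxylation.

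The promoters of 4 genes are printed as examples: ICS1, whose level varied little, FMO1 and CBP60G, which varied most within synthesis and regulation, and AIG1, in which every H89C library was above every other library. Those of ACD6 and LURP1 were also read and are not printed. Each sequence is the 250 bases before the annotated start of the gene in the RefSeq genome, build TAIR10.1, written 5′ to 3′ on the strand of the gene. Capitals mark matches to GAAATTT, the element bound by CBP60G and SARD1, or to CACGTG, the G-box, on either strand. ICS1 was read from chr1:28070045-28070294 on the plus strand, FMO1 from chr1:6653196-6653445 on the minus strand, CBP60G from chr5:9475429-9475678 and AIG1 from chr1:12345888-12346137, both on the plus strand.
ICS1: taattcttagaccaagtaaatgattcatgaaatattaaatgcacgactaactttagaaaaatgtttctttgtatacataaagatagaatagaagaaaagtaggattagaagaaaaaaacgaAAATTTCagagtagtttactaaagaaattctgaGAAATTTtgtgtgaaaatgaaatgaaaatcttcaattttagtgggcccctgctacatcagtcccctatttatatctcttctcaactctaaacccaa
FMO1: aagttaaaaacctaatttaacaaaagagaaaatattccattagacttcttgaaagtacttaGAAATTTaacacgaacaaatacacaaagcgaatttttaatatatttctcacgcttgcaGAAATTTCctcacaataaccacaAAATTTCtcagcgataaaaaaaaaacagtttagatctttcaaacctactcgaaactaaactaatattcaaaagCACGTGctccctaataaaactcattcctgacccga
CBP60G: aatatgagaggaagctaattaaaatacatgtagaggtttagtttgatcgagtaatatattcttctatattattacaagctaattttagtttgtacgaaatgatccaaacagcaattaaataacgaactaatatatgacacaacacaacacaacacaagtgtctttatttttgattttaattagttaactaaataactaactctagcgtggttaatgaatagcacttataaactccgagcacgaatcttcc
AIG1: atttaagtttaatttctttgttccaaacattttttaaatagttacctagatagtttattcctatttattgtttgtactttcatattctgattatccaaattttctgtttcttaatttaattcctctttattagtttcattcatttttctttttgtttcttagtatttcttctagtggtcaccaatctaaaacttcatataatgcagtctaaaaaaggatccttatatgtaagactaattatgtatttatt
GAAATTT matched at 2 positions in ICS1 and at 4 in FMO1, where a pair of matches on opposite strands overlap, and FMO1 also held 1 CACGTG. CBP60G and AIG1 held none of the 4 motifs searched. Over the 37 promoters, GAAATTT was found in 7 (18.9%, against 12.5% of 27443 promoters of protein-coding genes), TGACG, the core of TGA factor sites, in 7 (18.9%, against 18.6%), TTGAC, the core of the W-box bound by WRKY factors, in 13 (35.1%, against 44.9%) and CACGTG in 2 (5.41%, against 6.49%). These are letter matches on both strands and do not show binding.

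Library depth was 17.88 to 24.68 M reads, except for 8.24 M in Col replicate 3. Levels are normalized counts, that is reads divided by the authors' size factor of the library, and differences are on the log2(normalized count + 1) scale, on which genes with few reads show a smaller change than they had. The transcript of AtNEET averaged 16100.2 ± 895 normalized counts in H89C4-7, 2380.4 ± 109.8 in H89C11-7, 1299 ± 74.0 in H89C23-10, 32837 ± 1901 in NEET10-10, 18191 ± 528 in NEET5-4 and 332 ± 5.78 in NEET11-9, against 261 ± 93.9 in Col (SD, n = 3 each). The NEET11-9 libraries held 327 to 338, inside the Col range of 186 to 367, so this line is named here by its label alone. Counts are per gene, so transcripts of the H89C form are not told apart from those of the plant's own AtNEET. The first libraries of Col and of NEET10-10 stood apart from the others of their groups, with a chi-square per degree of freedom of 8.10 to 14.82 against 1.41 to 2.76 for the other pairs of replicates. Leaf markers (5 of 5 genes measured) summed to 645571 to 671896 in Col, so green tissue was present there as in all lines. The sums were lower in NEET10-10 (480492 to 532327), H89C4-7 (551772 to 606129), H89C11-7 (550565 to 591401) and NEET5-4 (562682 to 609288). They overlapped Col in H89C23-10 (637158 to 659628) and were higher in NEET11-9 (699335 to 713263). The single leaf markers did not all follow their sum. At an adjusted p under 0.05 by limma, 1 was higher and 2 lower than Col in H89C4-7 and in NEET5-4. In H89C11-7, 0 were higher and 2 lower, in NEET10-10 0 and 4, and in H89C23-10 and NEET11-9 1 and 1. The shares of all genes called are given below. Root markers (5 genes) summed to 880.5 to 1249.7 in H89C4-7 and 1071 to 1451 in H89C11-7, against 1899.7 to 2343 in Col, and to 2053 to 3041 in the other lines. Seed storage markers (4 genes) summed to 227 to 551 in H89C4-7, 172 to 485 in H89C11-7, 69.9 to 233 in H89C23-10 and 9.19 to 43.5 in the NEET lines, against 7.35 to 200.3 in Col. Among the senescence markers SAG12 had no read in any library, and SAG13 held 114 to 122 in H89C4-7, 38 to 44.3 in H89C11-7, 7.58 to 10.2 in H89C23-10, 0.894 to 6.02 in NEET10-10, 0 in NEET5-4 and 0 to 2.57 in NEET11-9, against 4.90 to 10.7 in Col. The part of these shifts in the results below was not tested, and in whole seedlings fewer cells of a type and less RNA per cell cannot be told apart.

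A gene was tested if it reached a normalized count of 10 in at least 3 libraries, which kept 35 of the 37 genes, all but PR1 and NIMIN1, and was called at an adjusted p under 0.05 by limma. The lines differed in direction over this pathway, also among lines of the same construct. In H89C11-7, 27 genes were higher and 3 lower than in Col, 30 of 35 in all (37.7% of all genes tested were called, 19.8% higher and 17.9% lower), with a median log2 difference of 0.56. NEET11-9 was the opposite, with 1 higher and 17 lower (10.9% of all genes were called, 4.49% higher and 6.44% lower; median -0.32). NEET5-4 had 4 higher and 14 lower (31.0%, 14.1% higher and 16.9% lower; median -0.18). NEET10-10 had 15 higher and 5 lower (30.3%, 15.6% higher and 14.7% lower; median 0.16), and H89C23-10 had 12 higher and 3 lower (22.1%, 11.5% higher and 10.5% lower; median 0.14). In H89C4-7, 13 were higher and 9 lower, a share of the genes near the background of that line (66.6% of all genes, 33.6% higher and 33.0% lower; median 0.08). The median over all genes tested lay between -0.00 and 0.01 in every line.

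**Figure D1:**
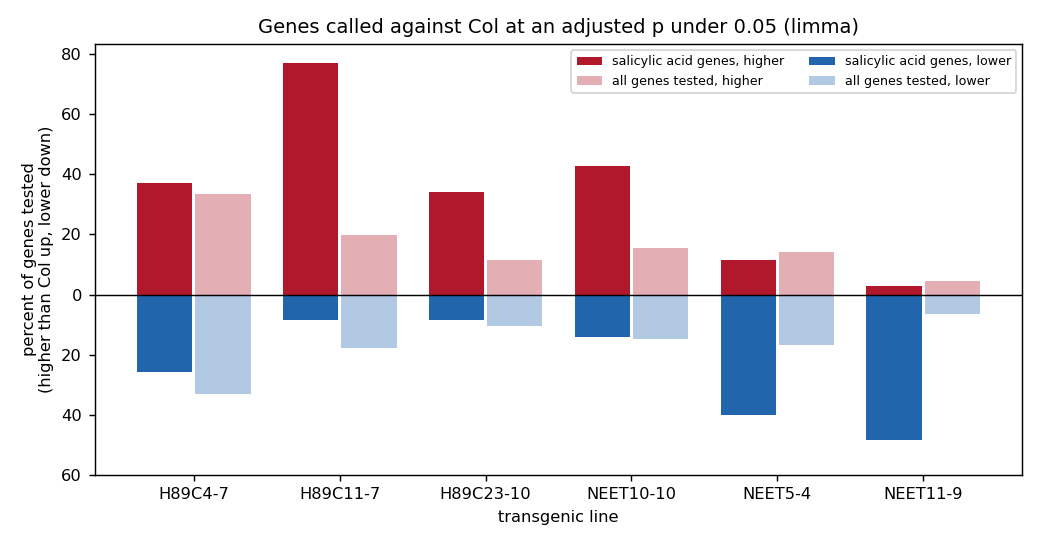
Percent of genes called against Col in each transgenic line (limma, adjusted p under 0.05), higher drawn upward and lower downward, for the 35 salicylic acid genes tested (dark bars) and for all 20699 genes tested (pale bars). The share of salicylic acid genes called higher exceeded that of all genes most in H89C11-7 (77.1% and 19.8%), and the share called lower most in NEET11-9 (48.6% and 6.44%).

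All 35 genes differed among the 7 groups by limma's F-test (85.0% of all genes did), and all 35 were called against Col in at least 1 line (84.0% of all genes). A larger part of them than of all genes went in opposite directions in different lines: 23 of 35 were called higher in at least 1 line and lower in at least 1 other, while 23.0% of all genes tested did so. Another 9 were called higher only and 3 lower only. The distance between the highest and the lowest group mean had a median of log2 1.79 over the 35 genes and 0.67 over all genes. It exceeded log2 4 in FMO1, LURP1, AIG1, PBS3, DLO1, PR2 and PCC1, 7 of 35 genes (1.24% of all genes), and was under log2 0.7 in NPR4, ICS1, EPS1, UGT76B1 and the 3 TGA genes. The comparisons with Col share the same 3 Col libraries.

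**Figure D2:**
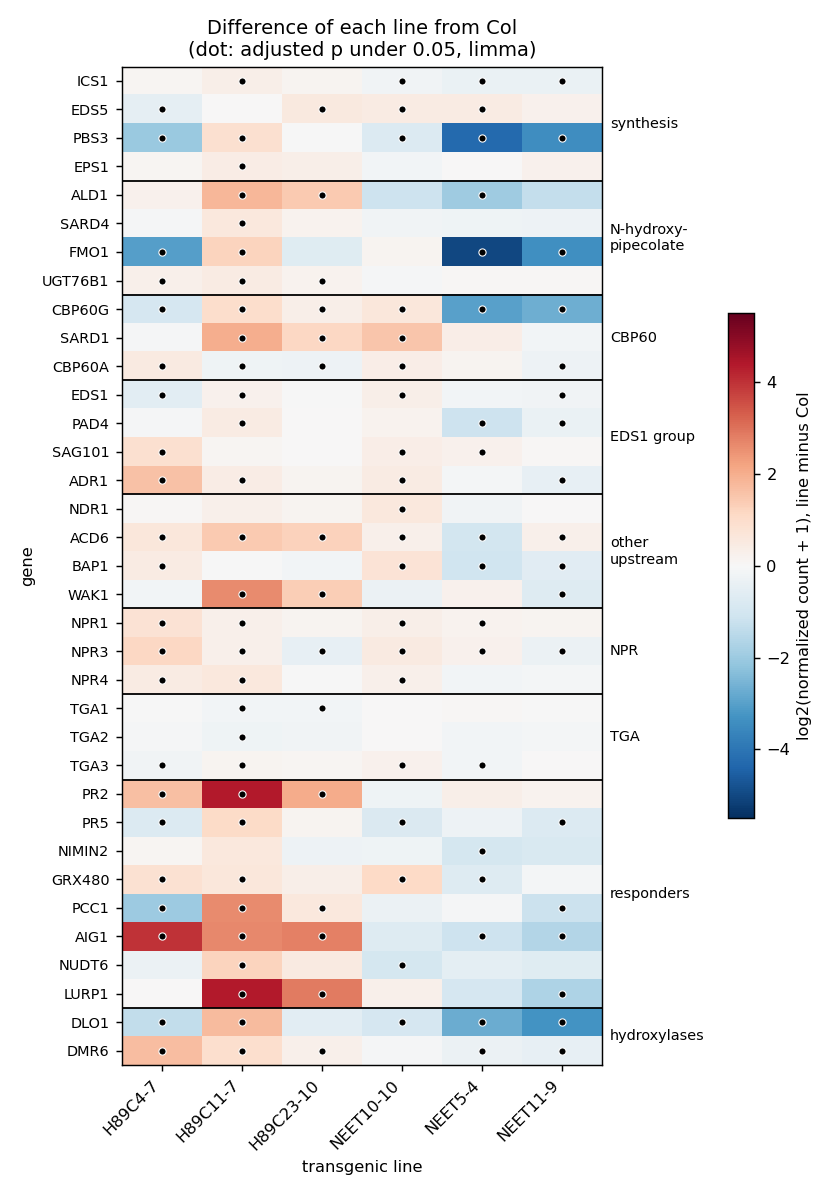
Difference of each transgenic line from Col on the log2(normalized count + 1) scale (colour) for the 35 genes tested, ordered by their role, with a dot where limma called the gene at an adjusted p under 0.05. PBS3, FMO1, CBP60G and DLO1 are blue in H89C4-7, NEET5-4 and NEET11-9 and red in H89C11-7, while ICS1, EPS1, UGT76B1 and the TGA genes stay near 0 in all lines.

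Within salicylic acid synthesis the conjugating step varied most, over a 35.7-fold range of group means, against 2.08-fold for EDS5, 1.59-fold for ICS1 and 1.48-fold for EPS1. PBS3 (AT5G13320), which makes isochorismoyl-glutamate, had 81.0, 77.8 and 65.6 normalized counts in the libraries of H89C4-7, 533, 586 and 577 in H89C11-7, and 313, 315 and 278 in H89C23-10. It had 185, 194 and 165 in NEET10-10, 21.2, 7.24 and 20.7 in NEET5-4, and 25.7, 25.1 and 34.3 in NEET11-9, against 316, 315 and 292 in Col. H89C11-7 lay above every other group and NEET5-4 and NEET11-9 below every other group, while H89C23-10 overlapped Col. The log2 difference from Col was -4.28 ± 0.22 (SE) in NEET5-4 (limma adjusted p = 4.57e-14), -3.41 ± 0.22 in NEET11-9 (2.66e-11), -2.03 ± 0.22 in H89C4-7 (1.66e-08), -0.76 ± 0.22 in NEET10-10 (0.0115) and 0.88 ± 0.22 in H89C11-7 (0.00322).

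ICS1 (AT1G74710), the isochorismate synthase, moved with a small amplitude. It had 402, 457 and 499.5 normalized counts in H89C4-7, 536, 516 and 526 in H89C11-7, and 499.7, 472 and 426 in H89C23-10. The NEET lines held 341, 369.9 and 379.9 in NEET10-10, 309, 331 and 349.7 in NEET5-4, and 316, 348 and 325 in NEET11-9, against 419, 411 and 431 in Col. Every library of the 3 NEET lines was below every Col library, and every H89C11-7 library above. The log2 differences were 0.32 ± 0.08 (SE) in H89C11-7 (limma adjusted p = 0.00201), -0.35 ± 0.08 in NEET5-4 (9.77e-04) and -0.35 ± 0.08 in NEET11-9 (0.00364). That of NEET10-10, -0.21 ± 0.08, had an adjusted p of 0.0424 and was not called without replicate 1 or 2 of NEET10-10 or any 1 of the 3 Col libraries (0.054 to 0.16). Where PBS3 was lowest, in NEET5-4 and NEET11-9, ICS1 averaged 329.8 in both, against 421 in Col.

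The exporter EDS5 (AT4G39030) had a pattern unlike that of PBS3 (Pearson's r = -0.12 over the 7 group means). It averaged 116 ± 16.7 in H89C4-7, 165 ± 8.53 in H89C11-7, 242 ± 29.2 in H89C23-10, 224 ± 20.9 in NEET10-10, 228 ± 16.6 in NEET5-4 and 196 ± 13.5 in NEET11-9, against 165 ± 12.5 in Col (SD, n = 3). By limma it was called lower in H89C4-7 (log2 -0.51 ± 0.11 SE, adjusted p = 2.61e-04) and higher in H89C23-10 (0.55 ± 0.11, 6.67e-04), NEET10-10 (0.44 ± 0.11, 0.00361) and NEET5-4 (0.47 ± 0.11, 0.00174). The NEET10-10 call was lost when the first libraries of Col and NEET10-10 were both left out (log2 0.33, adjusted p = 0.0582). EDS5 shares 213 bases with AT4G39040 on the other strand, and reads of the pair may be mixed, since the strand setting of the count is not known here. EPS1 (AT5G67160) stayed between group means of 88.9 and 131 and was called in H89C11-7 alone (log2 0.40 ± 0.12, adjusted p = 0.0117), a call lost without H89C11-7 replicate 2 (log2 0.35, 0.0514).

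**Figure D3:**
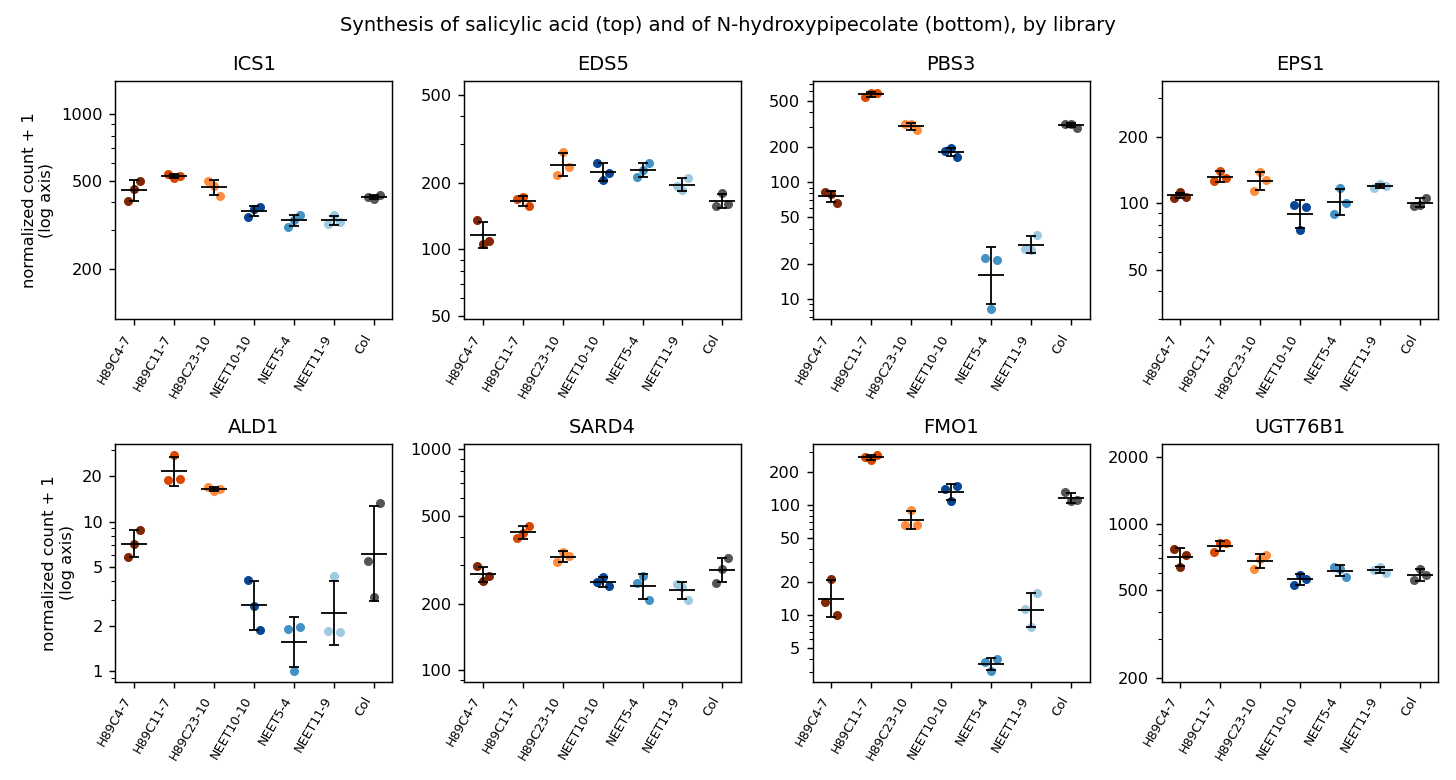
Normalized count + 1 (log axis) of the 4 genes of salicylic acid synthesis (top) and the 4 of N-hydroxypipecolate synthesis and conjugation (bottom) in each library (points), with the mean and SD of each group on the log2 scale (bars), lines left and Col right. PBS3 and FMO1 drop in H89C4-7, NEET5-4 and NEET11-9, whereas ICS1, EPS1 and UGT76B1 stay within a narrow band.

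The N-hydroxypipecolate genes also ranged from wide to narrow, with 75.8-fold between the group means of FMO1 and 1.42-fold for UGT76B1. FMO1 (AT1G19250), the oxygenase that completes the signal, had 12.1, 20.2 and 8.90 normalized counts in H89C4-7, 272, 254 and 285 in H89C11-7, and 64.9, 89.8 and 64.0 in H89C23-10. It had 138, 107 and 147 in NEET10-10, 2.76, 2.07 and 2.96 in NEET5-4, and 10.3, 6.70 and 14.7 in NEET11-9, against 129.6, 107 and 110.3 in Col. The ranges of H89C4-7, NEET5-4 and NEET11-9 were far below the Col range, that of H89C11-7 above it, and NEET10-10 overlapped it. FMO1 differed by log2 -5.02 ± 0.25 (SE) in NEET5-4 (limma adjusted p = 1.66e-14), -3.39 ± 0.25 in NEET11-9 (2.21e-10), -3.05 ± 0.25 in H89C4-7 (6.96e-11) and 1.22 ± 0.25 in H89C11-7 (3.89e-04). In H89C23-10 all 3 libraries were below Col, yet the difference was not called (log2 -0.67 ± 0.25, adjusted p = 0.0556).

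ALD1 (AT2G13810), the aminotransferase that starts the branch, was a low gene. H89C4-7 averaged 6.23 ± 1.48, H89C11-7 21.1 ± 5.15 and H89C23-10 15.5 ± 0.524, with 1.89 ± 1.09 in NEET10-10, 0.636 ± 0.552 in NEET5-4 and 1.67 ± 1.45 in NEET11-9, against 6.29 ± 5.30 in Col, whose libraries spread from 2.14 to 12.3 (SD, n = 3). It was called in H89C11-7 (log2 1.83 ± 0.50 SE, limma adjusted p = 0.00549) and NEET5-4 (-1.97 ± 0.50, 0.00355). The NEET5-4 value rests on few reads: it was -0.91 with 5 added in place of 1, -2.70 by edgeR and -2.98 by DESeq2, and it was not called in a fit of NEET5-4 and Col alone (0.0542). Its call in H89C23-10 (1.43 ± 0.50, 0.0426) was lost without Col replicate 1 or 2 or any 1 library of the line (0.091 to 0.201). SARD4 (AT5G52810), the reductase that follows, was called in H89C11-7, where it had 393, 415 and 449.7 against 247, 287 and 319 in Col (log2 0.57 ± 0.10, adjusted p = 8.32e-05). SARD4 shares 89 bases with AT5G52800 on the same strand. UGT76B1 (AT3G11340), which inactivates N-hydroxypipecolate with glucose, averaged 706 ± 65.5 in H89C4-7 and 791 ± 43.6 in H89C11-7, against 587 ± 35.9 in Col (log2 0.26 ± 0.07 and 0.43 ± 0.07, adjusted p = 0.0026 and 4.26e-05). Its group means in the NEET lines were 558 to 616.

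Among the CBP60 transcription factors, CBP60G was lower with PBS3 and FMO1 in H89C4-7, NEET5-4 and NEET11-9 and higher with them in H89C11-7. In NEET10-10 CBP60G was called higher than Col, while PBS3 was called lower and FMO1 overlapped Col. In H89C23-10 CBP60G was called higher, while PBS3 overlapped Col and FMO1 was not called. SARD1 moved otherwise, and CBP60A, described as a repressor of the pathway, changed least. CBP60G (AT5G26920) had 539, 546 and 483 normalized counts in H89C4-7, 1887, 1946 and 1999 in H89C11-7, and 1283, 1172 and 1297 in H89C23-10. It had 1521, 1556 and 1553 in NEET10-10, 123, 132 and 118 in NEET5-4, and 143, 160.0 and 157 in NEET11-9, against 1020.0, 950.1 and 1015 in Col. No line overlapped Col, and 3 lines lay on each side of it. The log2 differences were -2.99 ± 0.06 (SE) in NEET5-4 (limma adjusted p = 6.90e-22), -2.69 ± 0.06 in NEET11-9 (3.66e-20), -0.93 ± 0.06 in H89C4-7 (2.40e-12), 0.33 ± 0.06 in H89C23-10 (4.76e-04), 0.63 ± 0.06 in NEET10-10 (3.23e-08) and 0.97 ± 0.06 in H89C11-7 (1.52e-11).

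SARD1 (AT1G73805), the close relative that acts beside CBP60G, had no line called below Col. It held 94.9, 88.1 and 79.4 in H89C11-7, 47.2, 43.1 and 52.9 in H89C23-10 and 67.4, 71.4 and 53.6 in NEET10-10, against 17.9, 27.9 and 19.6 in Col. These 3 lines were clear of the Col range and were called higher (log2 1.98 ± 0.20, 1.12 ± 0.20 and 1.53 ± 0.20 SE, limma adjusted p = 2.55e-08, 1.96e-04 and 1.95e-06 in that order). SARD1 averaged 20.5 ± 2.71 in H89C4-7, 28.0 ± 4.63 in NEET5-4 and 19.0 ± 2.73 in NEET11-9, the 3 lines in which CBP60G was lower, against 21.8 ± 5.33 in Col (SD, n = 3). The 95% interval of its log2 difference from Col was -0.48 to 0.35 in H89C4-7, -0.05 to 0.77 in NEET5-4 and -0.59 to 0.24 in NEET11-9. SARD1 shares 640 bases with AT1G73790 on the other strand. CBP60A (AT5G62570) averaged 1023 ± 20.4 in H89C4-7 and 935 ± 89.8 in NEET10-10, both called higher, 594 ± 3.71 in H89C23-10, called lower, and 735 ± 56.1 in Col. It shares 246 bases with AT5G62573 on the other strand. Its log2 difference in H89C11-7, -0.23 ± 0.07, was called (adjusted p = 0.00892), but not without Col replicate 1 (0.0537) or H89C11-7 replicate 3 (0.0649), and that in NEET11-9, -0.28 ± 0.07 (0.00847), was not called without NEET11-9 replicate 3 (0.055).

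**Figure D4:**
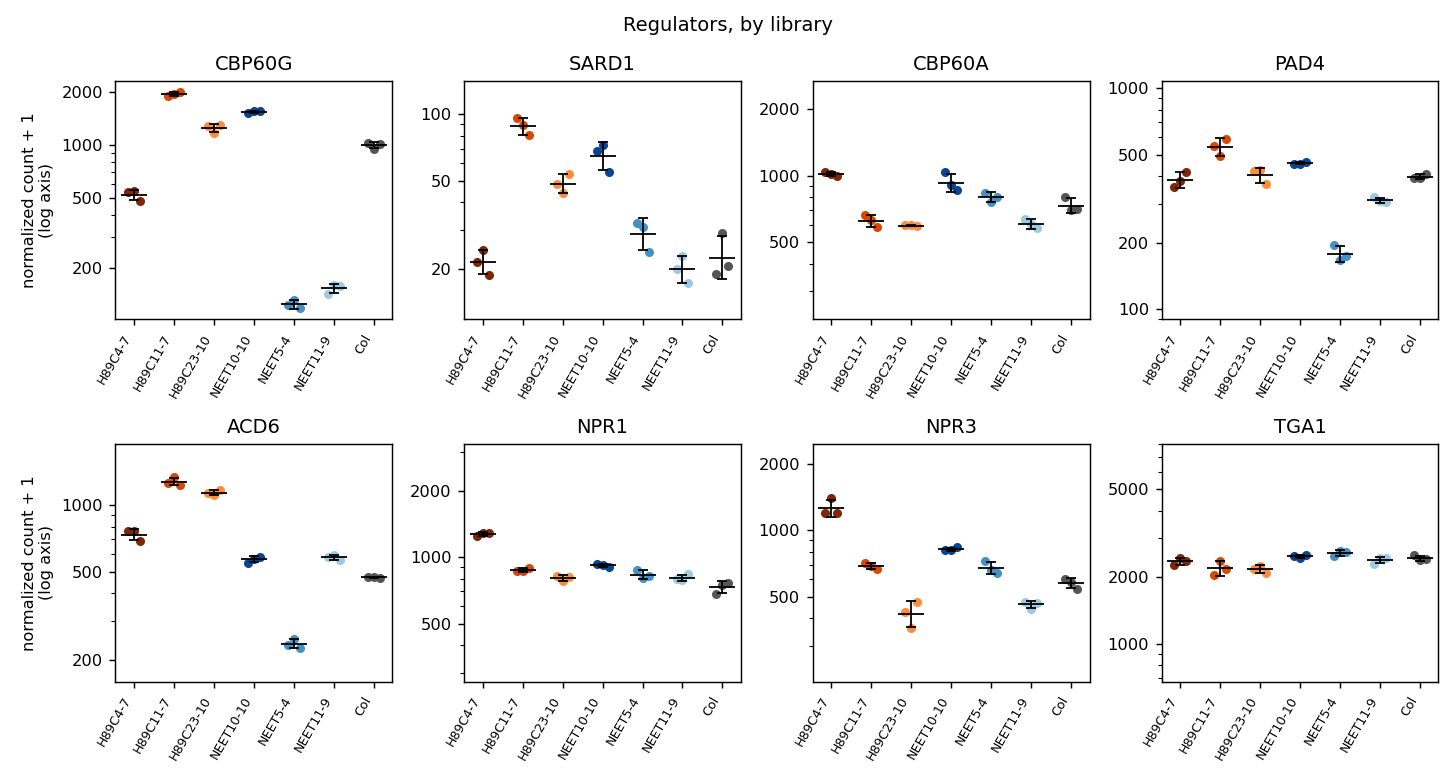
Normalized count + 1 (log axis) of 8 regulators in each library (points), with the mean and SD of each group on the log2 scale (bars), lines left and Col right. CBP60G and PAD4 are lowest in NEET5-4, SARD1 is raised in H89C11-7, H89C23-10 and NEET10-10, and NPR1 and NPR3 are highest in H89C4-7.

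The EDS1 group consists of the lipase-like proteins EDS1, PAD4 and SAG101 and the helper immune receptor ADR1, which pass signals from intracellular receptors to salicylic acid. PAD4 (AT3G52430) had 195, 165 and 172 normalized counts in NEET5-4, 319, 307 and 304 in NEET11-9 and 546, 492 and 589 in H89C11-7, against 391, 393 and 407 in Col. It lay below Col in both NEET lines and above it in H89C11-7, with log2 differences of -1.16 ± 0.08 (SE, limma adjusted p = 1.29e-11), -0.36 ± 0.08 (0.00435) and 0.45 ± 0.08 (1.02e-04) in that order. Its partner EDS1 (AT3G48090) was lowest in H89C4-7, at 357, 379 and 347 against 561, 524 and 544 in Col (log2 -0.59 ± 0.07, adjusted p = 1.63e-08), and higher in NEET10-10 at 703, 633 and 682 (0.31 ± 0.07, 7.63e-04).

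In H89C4-7, where EDS1 was lower, ADR1 and SAG101 were higher and PAD4 was not called. ADR1 (AT1G33560) had 526, 595 and 579.6 in H89C4-7 against 173, 175 and 203 in Col, a log2 difference of 1.62 ± 0.08 (SE, limma adjusted p = 9.79e-15). SAG101 (AT5G14930) had 545, 668 and 635 in H89C4-7 against 292, 355 and 373 in Col (0.86 ± 0.08, 1.38e-09). PAD4 in H89C4-7, at 355, 379 and 418, overlapped Col (log2 -0.05 ± 0.08, 95% interval -0.22 to 0.12). SAG13 was also above Col in these 3 libraries, and its part in these differences was not tested. ADR1 was also higher in H89C11-7 (0.41 ± 0.08, 3.77e-04) and NEET10-10 (0.44 ± 0.08, 3.06e-04) and lower in NEET11-9 (-0.44 ± 0.08, 8.69e-04). SAG101 in NEET5-4 had 409, 411 and 389, a log2 difference of 0.25 ± 0.08 (0.0211) that was not called without Col replicate 1 (log2 0.15, 0.165) or NEET5-4 replicate 1 (0.0614) or 2 (0.0655).

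Of 4 further upstream genes, ACD6 (AT4G14400), an ankyrin-repeat membrane protein that raises salicylic acid, was higher than Col in all lines but one. It had 760.2, 763 and 686 normalized counts in H89C4-7, 1264, 1336 and 1236 in H89C11-7, and 1135, 1110.4 and 1176 in H89C23-10. The NEET lines held 549, 569 and 585 in NEET10-10, 233, 248 and 225 in NEET5-4, and 582, 593 and 565 in NEET11-9, against 474, 472 and 468 in Col. The exception was NEET5-4, which averaged 236 ± 11.7 against 471 ± 2.88 in Col (SD, n = 3, limma adjusted p = 2.72e-13), whereas NEET11-9 was log2 0.30 ± 0.06 (SE) above Col (8.41e-04), the 1 called rise of that line. In H89C11-7 and H89C23-10 the difference was 1.44 ± 0.06 and 1.27 ± 0.06 (2.19e-15 and 3.29e-14).

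WAK1 (AT1G21250), a cell wall-associated receptor kinase induced by salicylic acid, had 271, 270.3 and 229.9 in H89C11-7 and 105, 101 and 119 in H89C23-10, against 52.7, 37.5 and 36.8 in Col. Both lines were clear of Col (log2 2.59 ± 0.22 and 1.35 ± 0.22 SE, limma adjusted p = 1.46e-09 and 6.48e-05), and 7.4% of its exon windows of 50 bases occur elsewhere in the genome. BAP1 (AT3G61190), an inhibitor of defence and cell death, had 271, 219 and 275 in NEET10-10, 73.7, 68.3 and 67.2 in NEET5-4 and 89.2, 104 and 93.8 in NEET11-9, against 135, 138 and 174 in Col (log2 0.77 ± 0.13, -1.08 ± 0.13 and -0.63 ± 0.13, adjusted p = 4.33e-05, 1.76e-07 and 0.00137). NDR1 (AT3G20600), a membrane protein needed by a class of immune receptors, was called in NEET10-10 alone, at 134 ± 6.47 against 90.2 ± 4.76 in Col (0.56 ± 0.13, 0.0012; SD, n = 3).

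The hormone receptors NPR1, NPR3 and NPR4 varied less, with NPR1 and NPR3 highest in H89C4-7 and NPR4 in H89C11-7. NPR1 (AT1G64280), the co-activator, had 1246, 1291 and 1288 normalized counts in H89C4-7, 864, 867 and 891 in H89C11-7, and 823, 779 and 809.5 in H89C23-10. It had 932, 924 and 901 in NEET10-10, 875, 801 and 824 in NEET5-4, and 793, 786 and 837 in NEET11-9, against 681, 747 and 767 in Col. All 18 libraries of the lines were above all 3 Col libraries, but the size was log2 0.80 ± 0.05 (SE) in H89C4-7 (limma adjusted p = 9.57e-13) and 0.14 to 0.33 elsewhere, and H89C23-10 (0.0635) and NEET11-9 (0.0911) were not called. The NEET5-4 call (log2 0.19 ± 0.05, 0.00729) was lost without its replicate 1 (log2 0.15, 0.0535). NPR1 shares 214 bases with AT1G08667 on the other strand.

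NPR3 (AT5G45110), a co-repressor released by the hormone, had 1192, 1396 and 1196 in H89C4-7 and 426, 362 and 471 in H89C23-10, against 601, 582 and 542 in Col. These were its extremes, log2 1.13 ± 0.08 (SE) above and -0.46 ± 0.08 below Col (limma adjusted p = 2.57e-12 and 1.02e-04). NPR3 in NEET5-4 had 724, 661 and 640.2, a log2 difference of 0.23 ± 0.08 (0.0253) that was not called without Col replicate 3 (0.103) or NEET5-4 replicate 1 (0.132). NPR4 (AT4G19660), the other co-repressor, was higher in H89C4-7 and H89C11-7 (log2 0.43 ± 0.08 and 0.56 ± 0.08, adjusted p = 2.30e-05 and 2.59e-06). The bZIP factors TGA1, TGA2 and TGA3 stayed within log2 0.25, 0.26 and 0.40 over all 7 groups. TGA1 had 2039, 2369 and 2187 in H89C11-7 and 2188, 2256 and 2081 in H89C23-10, against 2515, 2386 and 2409.9 in Col, and TGA2 had 298, 304 and 257 in H89C11-7, against 352, 344 and 311 in Col. These 3 small falls (log2 -0.15, -0.16 and -0.23, adjusted p = 0.022, 0.0219 and 0.0211) each lost their call without Col replicate 1 (0.0607, 0.0617 and 0.0716) and replicate 3 of the line (0.0573, 0.121 and 0.155), TGA1 in H89C11-7 also without its replicate 1 (0.166) and TGA2 also without Col replicate 2 (0.0596).

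The classical read-out of salicylic acid, PR1 (AT2G14610), was nearly silent. It had 0, 0 and 2 reads in H89C4-7, 4, 2 and 5 in H89C11-7, 3, 3 and 0 in H89C23-10, 0, 1 and 2 in NEET10-10, 1, 0 and 2 in NEET5-4, and 1, 2 and 2 in NEET11-9, against 0 in all 3 Col libraries, where a count of 0 allows up to 3 reads per library. At these counts it was not tested and no fold is given. PR2 (AT3G57260), a glucanase, had 29.5, 42.0 and 37.6 normalized counts in H89C11-7, against 0, 0 and 4.90 in Col (log2 4.36 ± 0.66 SE, limma adjusted p = 1.14e-05), and no library overlapped. The size of this difference rests on the few Col reads, and it was log2 2.71 with 5 added in place of 1, 5.05 with 0.5 added and 5.21 without Col replicate 3. PR2 in H89C4-7 had 3.63, 3.03 and 8.90, and in H89C23-10 it had 5.06, 8.81 and 5.98. These differences (1.66 and 2.04, adjusted p = 0.0312 and 0.0282) overlapped or bordered on Col replicate 3 and were not called without Col replicate 1 (0.134 and 0.117) or 2 (0.14 and 0.109), nor without H89C4-7 replicate 3 (0.143) or H89C23-10 replicate 2 (0.0997) or 3 (0.0645), and without Col replicate 3 they were log2 2.51 and 2.90. In the NEET lines PR2 had 0 to 2.76.

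PR5 (AT1G75040), a thaumatin-like protein, had 109.6, 89.1 and 95.6 in H89C11-7 and 24.5, 27.5 and 26.8 in NEET10-10, against 35.8, 68.6 and 41.7 in Col. H89C11-7 was above Col (log2 1.05 ± 0.25 SE, limma adjusted p = 0.00163). The fall in NEET10-10 (-0.81 ± 0.25, 0.0148) was not called without Col replicate 2, the highest Col library (log2 -0.54, 0.115). The NPR1-binding proteins NIMIN1 and NIMIN2 were low. NIMIN1 (AT1G02450) had 7, 12 and 10 reads in H89C11-7 and 0 in each NEET5-4 library, against 0, 3 and 0 in Col, and NIMIN2 (AT3G25882) had group means of 10.8 to 29.0. GRX480 (AT1G28480), a glutaredoxin that binds TGA factors, had 63.3, 42.2 and 47.4 in NEET10-10 and 39.9, 43.4 and 40.0 in H89C4-7, against 17.9, 22.5 and 29.4 in Col, all above the Col range (log2 1.10 ± 0.24 and 0.82 ± 0.24, adjusted p = 0.00107 and 0.0044).

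Beside PR2, the responders with the widest range were LURP1, AIG1 and PCC1, and they differed in which lines were highest and lowest. LURP1 (AT2G14560), needed for defence against an oomycete, had 196, 235 and 219.8 normalized counts in H89C11-7 and 64.0, 96.0 and 68.3 in H89C23-10, against 8.05, 8.57 and 12.3 in Col. Both lines were far above Col (log2 4.38 ± 0.50 and 2.86 ± 0.50 SE, limma adjusted p = 1.75e-07 and 1.47e-04), whereas the third H89C line, H89C4-7, had 9.67, 20.2 and 4.45 (0.03 ± 0.50, 0.955). In NEET11-9 it had 0, 3.35 and 6.53 (-1.71 ± 0.50, 0.0272), a difference not called without Col replicate 3 (-1.54, 0.0787) or NEET11-9 replicate 1 (-0.87, 0.231) and -2.33 without NEET11-9 replicate 3. Nor was it called by edgeR (adjusted p = 0.175) or DESeq2 (0.0772), or by limma with 5 added in place of 1 (log2 -0.89, 0.0572) or without the filter on low values (0.0522).

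AIG1 (AT1G33960), a GTP-binding protein induced in resistance to bacteria, was raised in all 3 H89C lines. It had 90.6, 110.1 and 141 in H89C4-7, 47.4, 37.0 and 48.8 in H89C11-7, and 57.3, 41.4 and 47.0 in H89C23-10. It had 1.02, 5.16 and 5.36 in NEET10-10, 1.84, 3.10 and 1.98 in NEET5-4, and 0.858, 1.67 and 1.63 in NEET11-9, against 5.36, 4.28 and 9.81 in Col. Every H89C library was above every other library, by log2 3.99 ± 0.38 (SE), 2.66 ± 0.38 and 2.78 ± 0.38 over Col (limma adjusted p = 9.43e-10, 3.89e-06 and 4.75e-06 in the order above). PCC1 (AT3G22231), a small protein under pathogen and clock control, had 31.4, 21.2 and 15.6 in H89C4-7 and 481, 638 and 527 in H89C11-7, against 111, 79.3 and 83.4 in Col. The lines were on opposite sides of Col (log2 -2.00 ± 0.19 and 2.58 ± 0.19, adjusted p = 8.88e-10 and 8.13e-11), and NEET11-9 was also lower at 44.6, 36.0 and 38.3 (-1.17 ± 0.19, 9.07e-05). PCC1 is uncertain, since 38.2% of its exon windows of 50 bases occur elsewhere in the genome and the counting of such reads is not known here. NUDT6 (AT2G04450), a nudix hydrolase, had 68.5, 56.1 and 54.9 in H89C11-7 and 11.2, 13.8 and 12.5 in NEET10-10, against 23.2, 31.1 and 22.1 in Col (1.21 ± 0.26 and -0.96 ± 0.26, adjusted p = 7.17e-04 and 0.00689).

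**Figure D5:**
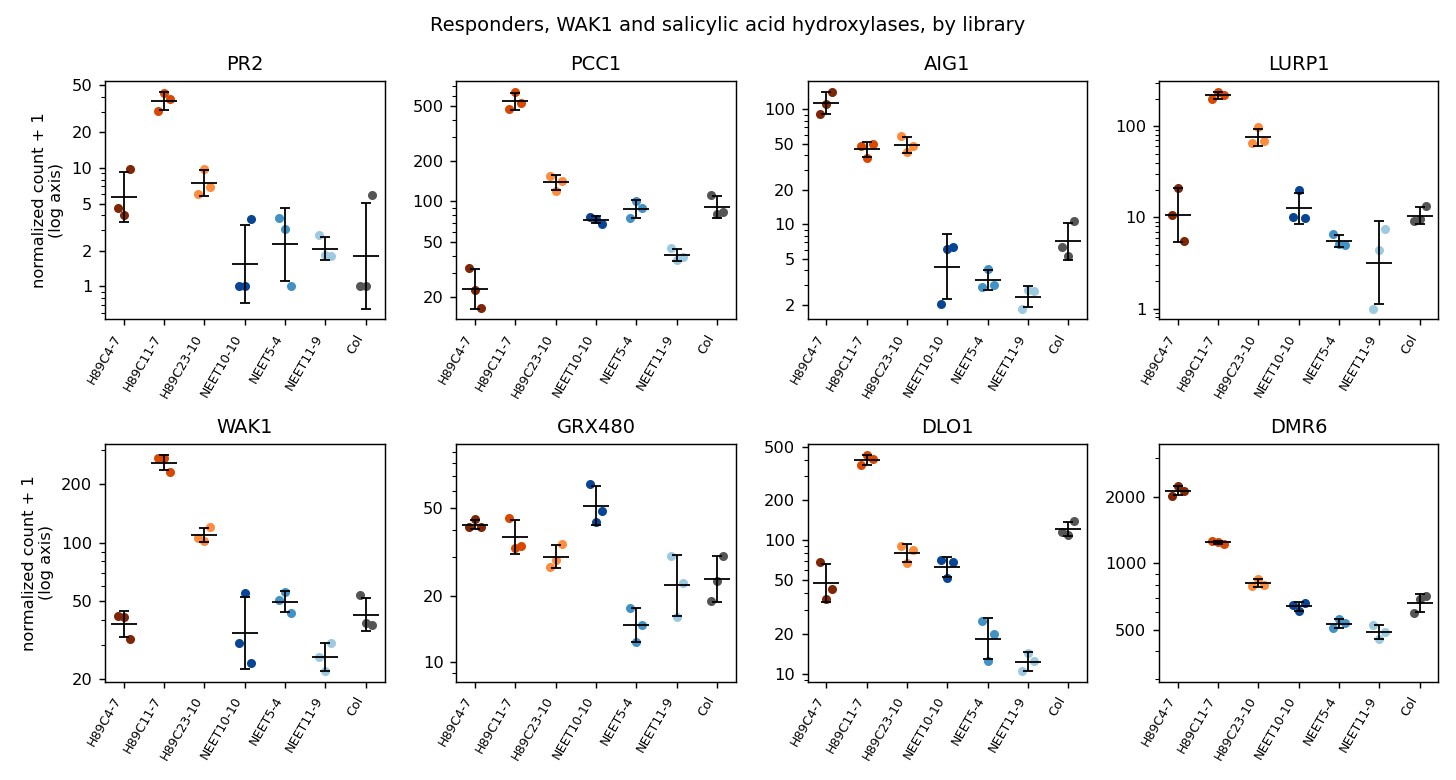
Normalized count + 1 (log axis) of 5 responders, of WAK1 and of the hydroxylases DLO1 and DMR6 in each library (points), with the mean and SD of each group on the log2 scale (bars), lines left and Col right. AIG1 is high in all 3 H89C lines, LURP1 in H89C11-7 and H89C23-10, and DLO1 and DMR6 part in H89C4-7, where DMR6 is highest and DLO1 below Col.

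The hydroxylases that remove salicylic acid parted in H89C4-7. DMR6 (AT5G24530), which adds a hydroxyl at the 5 position, had 2029, 2229.5 and 2132 normalized counts in H89C4-7, 1267, 1245 and 1223 in H89C11-7, and 792, 852 and 794 in H89C23-10. It had 645, 606 and 664 in NEET10-10, 507, 557 and 534 in NEET5-4, and 525, 452 and 489 in NEET11-9, against 595, 686 and 711 in Col. Every H89C library was above Col and every library of NEET5-4 and NEET11-9 below it. The log2 differences were 1.68 ± 0.07 (SE) in H89C4-7 (limma adjusted p = 3.49e-17), 0.91 ± 0.07 in H89C11-7 (9.42e-11), 0.29 ± 0.07 in H89C23-10 (0.00211), -0.32 ± 0.07 in NEET5-4 (5.76e-04) and -0.44 ± 0.07 in NEET11-9 (4.20e-05).

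DLO1 (AT4G10500), which adds it at the 3 position and is a marker of senescing leaves, had 67.7, 35.3 and 42.3 in H89C4-7, 364, 434 and 401 in H89C11-7, and 89.3, 66.0 and 83.7 in H89C23-10. It had 70.4, 50.8 and 67.0 in NEET10-10, 24.0, 11.4 and 18.8 in NEET5-4, and 9.44, 13.4 and 11.4 in NEET11-9, against 114, 109 and 137 in Col. H89C11-7 was the 1 line above Col, and the other 5 lay below it. The fall was log2 -3.29 ± 0.23 (SE) in NEET11-9 (limma adjusted p = 8.09e-11), -2.72 ± 0.23 in NEET5-4 (5.17e-10), -1.34 ± 0.23 in H89C4-7 (1.51e-05) and -0.93 ± 0.23 in NEET10-10 (0.0031). In H89C23-10 it was not called (-0.59 ± 0.23, 0.0684), and in H89C11-7 the difference was 1.73 ± 0.23 (1.69e-06). The order of DLO1 over the lines was that of PBS3 except among the lowest groups. SAG13, which was low outside H89C4-7 and H89C11-7, was highest in H89C4-7, and its relation to DLO1 was not tested.

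Lines of 1 construct were compared directly. H89C11-7 exceeded H89C4-7 in 21 genes and was lower in 8 (63.6% of all genes tested were called, 32.3% higher and 31.4% lower). FMO1 was log2 4.27 ± 0.25 (SE) higher in H89C11-7 than in H89C4-7, PCC1 4.58 ± 0.19, LURP1 4.34 ± 0.50, DLO1 3.07 ± 0.23, PBS3 2.91 ± 0.22, SARD1 2.04 ± 0.20 and CBP60G 1.89 ± 0.06 (limma adjusted p from 1.19e-16 for PCC1 to 3.87e-08 for LURP1, and 2.63e-18 for CBP60G). The 8 genes lower in H89C11-7 than in H89C4-7 included ADR1 (-1.21 ± 0.08, 4.25e-12), AIG1 (-1.33 ± 0.38, 0.00342), NPR3 (-0.87 ± 0.08, 4.46e-10), DMR6 (-0.77 ± 0.07, 2.13e-10), SAG101 (-0.74 ± 0.08, 2.05e-08) and NPR1 (-0.54 ± 0.05, 1.82e-09). ADR1, SAG101, NPR1 and NPR3 were thus higher in H89C4-7, while EDS1 (0.82 ± 0.07), PAD4 (0.50 ± 0.08), EDS5 (0.51 ± 0.11), PBS3 and the CBP60 activators were higher in H89C11-7. ICS1 (0.22 ± 0.08, limma adjusted p = 0.0166) was not called without H89C11-7 replicate 1 (0.0511) or H89C4-7 replicate 1 (log2 0.14, 0.145). EPS1 (0.29 ± 0.12, 0.0412) was not called without H89C11-7 replicate 2 (0.128) or 3 (0.0681), without H89C4-7 replicate 1 (0.0899), 2 (0.0539) or 3 (0.0868), or by DESeq2 (0.0763).

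NEET10-10 and NEET5-4, which both had AtNEET far above Col, differed in 18 genes, all higher in NEET10-10 (28.1% of all genes tested were called, 15.8% higher and 12.4% lower). FMO1 was log2 5.19 ± 0.25 (SE) higher in NEET10-10 than in NEET5-4 (limma adjusted p = 6.93e-15), CBP60G 3.63 ± 0.06 (6.36e-24), PBS3 3.52 ± 0.22 (2.20e-12), BAP1 1.85 ± 0.13 (8.79e-12), GRX480 1.79 ± 0.24 (1.73e-06), DLO1 1.79 ± 0.23 (7.86e-07), PAD4 1.37 ± 0.08 (4.86e-13) and ACD6 1.27 ± 0.06 (1.81e-15). ICS1 was not called between them (0.14 ± 0.08, 0.197).

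H89C4-7 and NEET5-4 are lines of different constructs with AtNEET means of 16100.2 and 18191. They differed in 24 of 35 genes (68.6%), near the 67.4% of all genes tested. Of these, 20 were higher and 4 lower in H89C4-7 (34.5% and 32.8% of all genes tested). AIG1 was log2 5.12 ± 0.38 (SE) higher in H89C4-7 (limma adjusted p = 6.51e-12), PBS3 2.25 ± 0.22 (2.29e-09), CBP60G 2.06 ± 0.06 (1.29e-19), DMR6 2.00 ± 0.07 (5.78e-19), FMO1 1.97 ± 0.25 (1.54e-07), ADR1 1.73 ± 0.08 (1.76e-15) and ACD6 1.64 ± 0.06 (1.52e-18). Lower in H89C4-7 were PCC1 (-1.95 ± 0.19, 1.20e-09), EDS5 (-0.97 ± 0.11, 2.16e-08), EDS1 (-0.44 ± 0.07, 1.72e-06) and TGA1 (-0.12 ± 0.05, 0.0339), the last not called without H89C4-7 replicate 1 (0.148) or 3 (0.0592) or NEET5-4 replicate 2 (0.113) or 3 (0.076). FMO1 and PBS3 were below Col in both lines and lower still in NEET5-4.

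With the line as the unit, 3 H89C line means against 3 NEET line means, limma called 0 of 35 genes and 0.00% of all genes. At an unadjusted p under 0.05, 12 genes were higher in H89C and 0 lower (11.4% of all genes passed, 5.35% of all genes being higher). This count was 5 without line H89C11-7, 6 without NEET11-9, 7 without NEET5-4 and 16 without H89C4-7, in the last case 15 higher and 1 lower. EdgeR's quasi-likelihood test on recovered reads called 0, with 13 at an unadjusted p under 0.05, and DESeq2 called 6, all higher (1.09% of the 20677 genes with a DESeq2 adjusted p were called, 0.750% higher and 0.339% lower), with 14 at an unadjusted p under 0.05. The share of all genes at an unadjusted p under 0.05 was counted only for the limma fit of all 6 lines. The unadjusted counts without a line, by edgeR and by DESeq2 therefore cannot be set against a background. In 9 genes every H89C line mean was above every NEET line mean (11.1% of all genes): ICS1, ALD1, SARD4, UGT76B1, ACD6, PR2, AIG1, NUDT6 and DMR6. In TGA1 every H89C mean was below (11.9% of all genes). The smallest unadjusted p was that of AIG1, with a log2 difference of 4.30 ± 0.44 (SE, limma adjusted p = 0.187), and ICS1 averaged 482 in the H89C lines and 341 in the NEET lines (0.49 ± 0.11, adjusted p = 0.438). The median SD between line means was log2 0.457 within H89C and 0.381 within NEET over the 35 genes, and 0.129 between libraries of a line. Over all genes these were 0.244, 0.138 and 0.119.

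The likeness of 2 genes was described by Pearson's r of their 7 group means on the log2 scale. The 7 group means come from the same 21 libraries for every gene, 7 points make every r imprecise, and r says nothing of shared control. PBS3 was most like FMO1 and CBP60G (r = 0.96 each), FMO1 was like CBP60G (0.95), and DLO1 was like PBS3 (0.93). ICS1 was most like ALD1 (0.97) and less like PBS3 (0.82) and FMO1 (0.66). SARD4 was most like LURP1 and NUDT6 (0.96 each), BAP1 like GRX480 (0.94), SAG101 like NPR1 (0.96), and AIG1 like DMR6 (0.92). EDS5 and DMR6 went opposite ways (-0.79), as did ACD6 and TGA1 (-0.95).

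A further 36 genes of the pathway were listed, of which 34 were tested. In H89C4-7, 16 of them were called higher and 14 lower than Col, 88.2% in all against 66.6% of all genes tested. H89C11-7 had 8 higher and 7 lower (44.1%, against 37.7% of all genes) and H89C23-10 3 and 6 (26.5%, against 22.1%), both near the background. NEET10-10 had 18 higher and 4 lower (64.7%, against 30.3%), NEET5-4 7 and 13 (58.8%, against 31.0%) and NEET11-9 1 and 8 (26.5%, against 10.9%). The median log2 difference in H89C11-7 was 0.05. UGT74F2 (AT2G43820), which stores salicylic acid as a glucose ester, had 8201, 9682 and 8624 normalized counts in H89C4-7 and 2555, 2463 and 2625 in H89C11-7, against 1306, 1460.0 and 1417 in Col. No library overlapped, and the log2 differences were 2.66 and 0.87 by limma. The immune receptor gene SNC1 (AT4G16890) had 7424, 8315 and 7676 in H89C4-7 and 2355, 2379 and 2520.4 in NEET5-4, against 3229.9, 3377 and 3503 in Col (log2 1.21 and -0.48).

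AT4G26120, listed here as NPR2 though the annotation used gave it no symbol, differed from Col in the same direction as CBP60G in the lines given next. It had 59.2, 49.5 and 64.5 in H89C4-7, 232, 304 and 271 in H89C11-7, 13.8, 25.9 and 24.7 in NEET5-4, and 40.3, 36.8 and 38.3 in NEET11-9, against 112, 126 and 127 in Col, with limma log2 differences of -1.07, 1.13, -2.50 and -1.64. BAP2 (AT2G45760), a relative of BAP1, had 3.68, 8.28 and 2.96 in NEET5-4 and 3.43, 5.86 and 7.34 in NEET11-9, against 55.4, 55.7 and 44.1 in Col (-3.24 and -3.05). ICS2 (AT1G18870), the second isochorismate synthase, had 345, 377 and 367 in H89C23-10 and 87.0, 111 and 96.8 in H89C4-7, against 219, 258 and 213 in Col (0.66 and -1.22), so in H89C4-7 it was lower while ICS1 overlapped Col. AT4G31000 had 926, 918 and 842 in NEET5-4, against 396, 413 and 365 in Col (1.19), and WAK2 had 236, 251 and 239 in H89C4-7, against 586, 676 and 593 in Col (-1.35). GH3.5, which conjugates salicylic acid and auxin to amino acids, was lower in H89C11-7 and H89C23-10 (-0.37 and -0.45), and ADR1-L2 and CAMTA3, a calmodulin-binding repressor of the pathway, were higher in NEET10-10 (0.67 and 0.52).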

How the data were processed

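Per the labels' protocols, TRIzol RNA was column-purified before TruSeq library construction. The deposited file holds a normalized signal per gene and library, that is read counts the authors scaled with a size factor for each library, and the submitters' processing notes name FastQC 0.11.7, STAR 2.4.0.1, DESeq2 1.20.0 and TAIR10. The counting program, how it handled strand and multiply mapped reads were not given in the sources used here. Whole reads were recovered from the value steps (100% of values within 0.001 reads), with a median depth of 21.16 M reads; depth limits genes with few reads, and the counts cover counting error only.

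Differences were tested by limma-trend (limma 3.58.1, R 4.3.3) on log2(normalized count + 1), with 1 mean per group over all 21 libraries (14 residual degrees of freedom) and Benjamini-Hochberg adjustment over 20699 genes reaching 10 normalized counts in 3 or more libraries. The constructs were compared on 6 line means. edgeR 4.0.16 and DESeq2 1.42.0 on the recovered reads, other pseudocounts, no filter, TMM scaling, a replicate block, a fit of the compared groups alone, a 2-fold limit and leaving out libraries or lines were alternatives. Leaving out the first libraries of Col and NEET10-10 together was added after the data were seen. The model was also run on simulated counts that held no spread between lines, so that run does not bear on the comparison of the constructs. Genes given per library were the 4 largest called rises and falls of each line with a mean of at least 20 and no overlap with Col, plus ICS1, FMO1, PR1, PR2 and NPR1, and of the 36 further genes up to 3 per comparison with the smallest adjusted p. Other genes given per library were chosen after their values were seen. The genes and lists were chosen with earlier results of these data known. Symbols, promoters and exon windows came from RefSeq TAIR10.1, in which all 37 genes were found; 32548 of 32833 loci matched. Sequence tables of proteins were not used here.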

Additional observations from a re-analysis of the deposited data

Results flagged for a closer look

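The results below are differences between 2 lines whose called differences from Col had opposite signs, tested directly by limma and given as log2 with the adjusted p. H89C11-7 was above H89C4-7 in FMO1 (4.27, 1.29e-13), PCC1 (4.58, 1.19e-16), DLO1 (3.07, 1.56e-11), PBS3 (2.91, 2.81e-11), CBP60G (1.89, 2.63e-18), PR5 (1.79, 7.63e-07), EDS1 (0.82, 4.99e-11) and TGA3 (0.33, 1.59e-05) and below it in CBP60A (-0.71, 1.49e-09). PR5 in H89C4-7 was not called against Col without Col replicate 2 (log2 -0.47, 0.106) or H89C4-7 replicate 1 (-0.58, 0.066), and CBP60A in H89C11-7 was not called against Col without Col replicate 1 (0.0537) or H89C11-7 replicate 3 (0.0649). TGA3 in H89C11-7 was not called without Col replicate 1 (0.0814) or 3 (0.114) or H89C11-7 replicate 1 (0.114) or 2 (0.113). NEET10-10 was above NEET5-4 in CBP60G (3.63, 6.36e-24), BAP1 (1.85, 8.79e-12), GRX480 (1.79, 1.73e-06), ACD6 (1.27, 1.81e-15) and TGA3 (0.38, 6.21e-06). Against Col, TGA3 was not called in NEET5-4 without Col replicate 2 (0.0974) or NEET5-4 replicate 2 (0.0574) or 3 (0.0732), nor in NEET10-10 without the first libraries of Col and NEET10-10 (0.0587). H89C4-7 was above NEET5-4 in AIG1 (5.12, 6.51e-12), DMR6 (2.00, 5.78e-19), ACD6 (1.64, 1.52e-18), BAP1 (1.51, 8.36e-11) and GRX480 (1.51, 5.52e-06) and below it in EDS5 (-0.97, 2.16e-08). Against Col, AIG1 in NEET5-4 was not called without Col replicate 3 (log2 -0.83, 0.125) or NEET5-4 replicate 1 (-1.03, 0.075) or 3 (-1.06, 0.0689). GRX480 in NEET5-4 was not called without Col replicate 2 (-0.70, 0.055) or 3 (-0.51, 0.15) or NEET5-4 replicate 2 (-0.56, 0.133) or 3 (-0.69, 0.0693). By edgeR and DESeq2, the differences from Col of AIG1 in NEET5-4 (adjusted p = 0.134 and 0.148) and GRX480 in NEET5-4 (0.135 and 0.165) were not called. That of TGA3 in H89C11-7 was not called by edgeR (0.0758), by DESeq2 (0.0957) or by limma with TMM scaling (0.0607).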

How the results depend on the processing

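Of 194 called differences of single genes, 0 changed sign under any alternative. Called genes dropped with a 2-fold limit to 9 (5 higher, 4 lower) in H89C4-7, 12 (12, 0) in H89C11-7, 7 (7, 0) in H89C23-10, 2 (2, 0) in NEET10-10, 8 (0, 8) in NEET5-4 and 7 (0, 7) in NEET11-9, and to 14 for H89C11-7 against H89C4-7, 9 for NEET10-10 against NEET5-4 and 14 for H89C4-7 against NEET5-4; a stricter rule can only lower them. A fit of the compared groups alone called 10 genes (1 higher, 9 lower) in NEET5-4 and 11 (1, 10) in NEET11-9; it has fewer residual degrees of freedom. DESeq2 on recovered reads called 6 genes between the constructs (1.09% of all genes with a DESeq2 adjusted p), where limma called 0. Other counts stayed within 1.5 times. Single calls lost were 111 of 1164 in fits without 1 library, 33 of 194 in fits of the compared groups alone, 14 without the first libraries of Col and NEET10-10, 12 of 192 by DESeq2, 10 without the filter, 9 by edgeR, 3 with TMM scaling, and 1 and 2 with pseudocounts of 0.5 and 5. Without each library in turn, counts were 20 to 22 in H89C4-7, 25 to 28 in H89C11-7, 10 to 15 in H89C23-10, 18 to 20 in NEET10-10, 14 to 18 in NEET5-4 and 15 to 18 in NEET11-9. Replicate numbers did not pair the samples (correlations of at most 0.09 between libraries of the same number), and with the replicate block 29 genes were called in H89C11-7 and 15 in H89C23-10, with 4 single calls lost. Depth limits PR1, NIMIN1, PR2 and ALD1, which had few reads.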
